A study of Mus musculus with 62 samples.

Results

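The genes described here are 42 components of autophagy and their transcriptional regulators, taken by symbol from a fixed list out of the 47643 genes in a transcriptome table of mouse diaphragm. The list was drawn up by function, but with earlier results of these data known. All 42 genes were present in the table and reached at least 1 TPM (transcripts per 1000000 transcripts) in at least 5 mice. They were grouped by role into 3 FoxO factors, 2 TFEB factors, 5 genes of the ULK complex, 6 of the class III PI3-kinase complex, 5 of membrane supply, 9 of the conjugation system, 5 of the ATG8 family, 3 cargo receptors and 4 mitophagy genes.

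Autophagy encloses cytoplasm in a double membrane and delivers it to the lysosome. The ULK kinase complex starts the process, a lipid kinase complex around Pik3c3 marks the membrane, and the conjugation enzymes attach ATG8 proteins (LC3 and GABARAP) to it, where cargo receptors bind. In skeletal muscle, FoxO factors are known to switch on genes of this pathway and the ubiquitin ligases of atrophy when nutrients or insulin are low, and TFEB and TFE3 are known to control lysosomal genes.

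RNA-seq was done on the diaphragm, the main breathing muscle, of 62 female mice that had received melanoma cells of a cachexia-inducing patient-derived xenograft (cachectic), melanoma cells of another xenograft that does not cause wasting (non-cachectic), or a mock injection (control). Each group was collected 2, 4, 6 and 8 weeks later, with 5 mice per condition and 7 cachectic mice at 8 weeks, which gives 12 conditions. The mice were 2 months old per the labels. Their strain is C57BL/6J in the sample labels and NCI Ath/nude, an athymic strain without mature T cells, in the series description and the methods of the study, so it is not settled here. Each tumour type is 1 tumour stock, so cachexia and the particular tumour cannot be told apart. Per the study's methods, RNA came from a part of each diaphragm, freed of tendons, while the other part was sectioned. Each library holds all cells of that piece, so fewer cells of a type and less RNA per cell cannot be told apart.

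The tissue label was checked on 11 skeletal muscle markers, none of which was at 0 in any group. Acta1, skeletal actin, ranged from 7993 to 47694 TPM over the 62 mice. In 4 libraries 15069 to 16389 genes were above 0, against 17909 to 19057 in the other 58. At 2 weeks these were replicates 3 and 4 of the cachectic group and replicate 5 of the non-cachectic group, and at 8 weeks it was replicate 3 of the cachectic group. Their share of TPM from the mitochondrial genome was 54.4% to 61.5%, where the other 58 had 32.5% to 50.1%, and the median ratio to the mean library was 0.376 to 0.567 against 0.875 to 1.29. The summed level of the 42 genes was 1037 to 1378 TPM in these 4 libraries and 1891 to 4433 TPM in the other 58. Since all conditions share 1 estimate of the spread, the counts of members called at 6 and 8 weeks are given for all 62 mice and again for the 58 mice without these libraries.

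Pink1, the kinase that marks damaged mitochondria, had the highest level of the 42 genes in control mice, at 662 ± 66.4 TPM (mean ± SD, n = 20 mice over the 4 time points). Bnip3, a mitophagy receptor of the outer mitochondrial membrane, followed at 265 ± 49.3 TPM and Sqstm1 (p62), the receptor for ubiquitinated cargo, at 191 ± 21.3 TPM. The lowest levels were those of Tfe3, a transcription factor related to TFEB, at 4.00 ± 0.453 TPM, of Atg7, the activating enzyme of both conjugation systems, at 4.15 ± 0.571 TPM and of Pik3r4, the regulatory subunit of the lipid kinase, at 4.24 ± 0.361 TPM. These last 3 did not differ beyond their spread. The 5 ATG8 genes had mean levels from 53.1 to 147 TPM, all above the 4.15 to 29.7 TPM of the 9 conjugation genes that act on their products.

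Differences are given as cachectic minus control means of log2(TPM + 1), with limma's moderated test and Benjamini-Hochberg adjustment over 13578 genes. A gene is called where the adjusted p is under 0.05, with no limit on its size. In cachectic diaphragms the ATG8 genes Map1lc3b, Gabarap and Gabarapl2 were higher than in controls at both 6 and 8 weeks. At 8 weeks the mitophagy receptors Bnip3 and Bnip3l were also higher, while the kinase Ulk2 and the mitophagy receptor Fundc1 were lower. With all mice Bnip3, Bnip3l and Ulk2 were not called against non-cachectic mice at 8 weeks. Without the 4 libraries with few genes, Foxo1, Foxo3, Sqstm1 and the remaining ATG8 genes were called as higher at 8 weeks too. In non-cachectic mice no member was called against controls at any time.

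At 8 weeks, 5 of the 42 members were called as higher in cachectic than control mice (11.9%) and 2 as lower (4.76%), where 6.65% and 8.12% of all genes tested were called. In the 58 mice the counts were 16 higher (38.1%) and 2 lower (4.76%), against 22.2% and 12.4% of all genes. At 6 weeks, 3 members were higher and none lower with all mice, against 5.62% and 1.17% of all genes. In the 58 mice 17 were higher and 1 lower at 6 weeks, against 26.9% and 4.29%. These 17 were Foxo3, Rb1cc1, Becn1, Pik3c3, Atg14, Atg3, Atg4b, Atg7, Atg12, Atg16l1, Map1lc3a, Map1lc3b, Gabarap, Gabarapl2, Sqstm1, Nbr1 and Optn, and the lower gene was Fundc1. At 6 weeks the whole distribution was shifted, with a median over all genes tested of 0.17 on the log2 scale, and the median of the 42 members was 0.22. The mitochondrial share of TPM moved with the group as well. It was 34.3% to 44.9% in cachectic mice and 44.9% to 47.9% in controls at 6 weeks, and 32.5% to 41.6% in the 6 cachectic mice with full libraries against 40.9% to 49.3% at 8 weeks. The part of this share in the members' differences was not tested. Scaling the 58 libraries to a common median ratio left 4 members higher and 5 lower at 6 weeks, against 10.2% and 12.4% of all genes, so the balance of calls at 6 weeks turns with the scaling, while at 8 weeks 15 were higher and 5 lower, against 20.2% and 18% of all genes. By Dunn's rank test, which the study used, 3 of the 7 calls at 8 weeks remained, those of Gabarapl2 (adjusted p = 0.0204), Fundc1 (0.022) and Ulk2 (0.0314), against 8.26% of all genes, while Map1lc3b had an adjusted p of 0.316. At 6 weeks Dunn's test called no member and no gene at all (0%), with 20 members and 4433 of 13578 genes at an unadjusted p under 0.05. Fitting only the 2 groups compared, with their own spread, gave 18 members at 6 weeks, against 29.7% of all genes, and 0 at 8 weeks, against 4.07%, where 4 had an unadjusted p under 0.05 by limma. The plot of shares called shows all mice, the 58 mice and the scaled 58 libraries side by side.

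**Figure D1:**
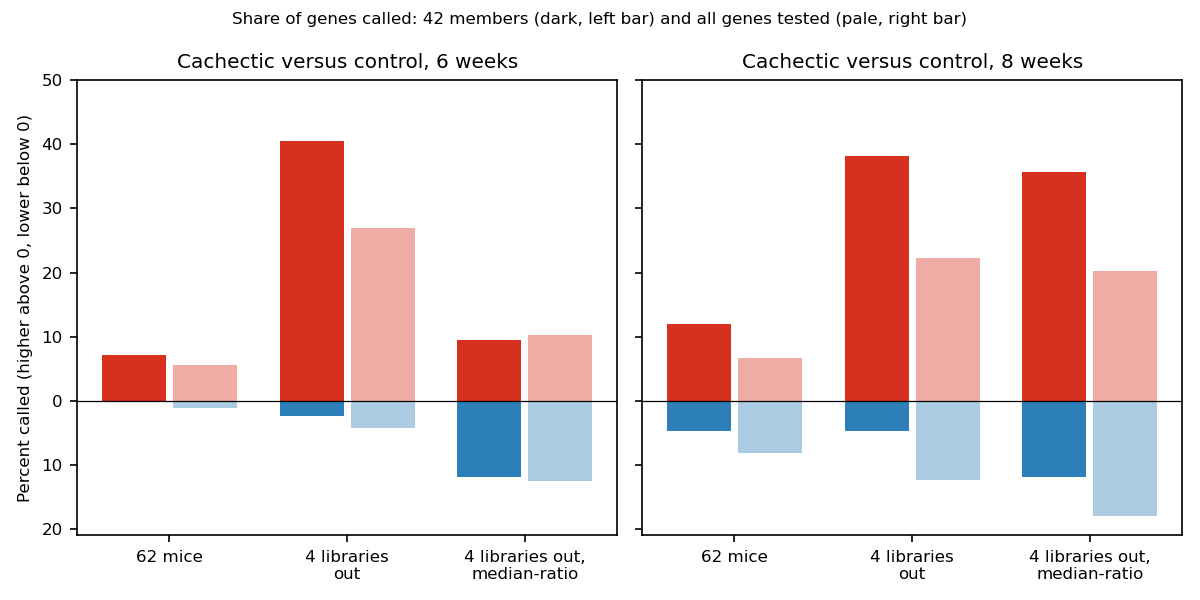
Percent of the 42 members (dark, left bar of each pair) and of all 13578 genes tested (pale, right bar) called as higher (red, above 0) or lower (blue, below 0) in cachectic than control mice at 6 and 8 weeks, for 62 mice, 58 mice and 58 mice with median-ratio scaling. At 8 weeks the members' share of higher calls was 38.1% against 22.2% of all genes in 58 mice, and at 6 weeks with median-ratio scaling 9.52% of members against 10.2% of all genes were higher.

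**Figure D2:**
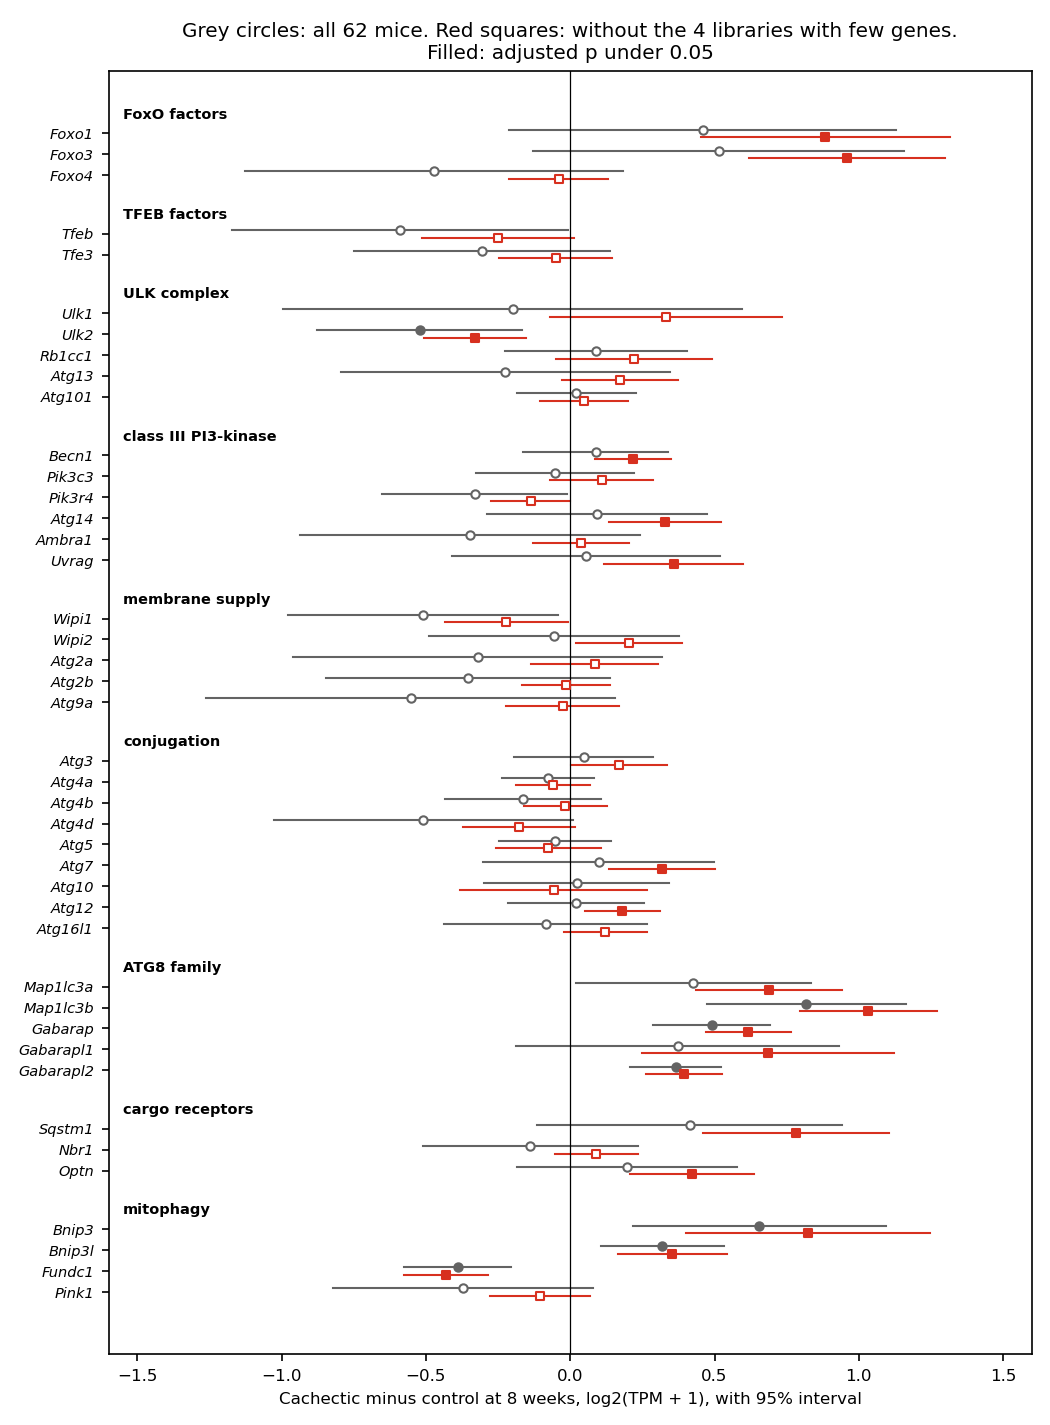
Difference of cachectic minus control log2(TPM + 1) at 8 weeks for each of the 42 members by role, as points with 95% intervals of the limma fit, for all 62 mice (grey circles) and 58 mice (red squares). Filled symbols have an adjusted p under 0.05. All 5 ATG8 genes lie to the right of 0, and Ulk2 and Fundc1 lie to the left in both fits.

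Of the FoxO factors, Foxo3 had levels in cachectic mice at 6 weeks of 38.0, 24.5, 23.2, 25.9 and 22.0 TPM. The controls at that time had 14.7, 18.0, 20.3, 16.5 and 15.3 TPM, so that every cachectic mouse lay above every control. At 8 weeks Foxo3 ranged in the cachectic mice from 2.81 TPM, in the library with few genes, over a median of 27.5 to 54.6 TPM, against 13.6 to 19.5 TPM in the 5 controls. With all mice the difference in Foxo3 at 8 weeks was 0.51 ± 0.33 (SE) and was not called (adjusted p = 0.332 by limma). In the 58 mice it was 0.96 ± 0.17 (adjusted p = 2.09e-05), and the 6 remaining cachectic mice were all above the controls. Foxo1 had a difference of the same sign at 8 weeks, 0.88 ± 0.22 in the 58 mice (adjusted p = 0.0014) and 0.46 ± 0.34 in all mice (adjusted p = 0.42). Foxo1 was the lower expressed of the pair, with 8.16 ± 1.28 TPM in the 5 controls and 16.4 ± 4.90 TPM in the 6 cachectic mice at 8 weeks. Foxo4, the most abundant FoxO transcript here, had a difference of -0.04 ± 0.09 in the 58 mice (adjusted p = 0.778).

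The levels of Tfeb and Tfe3, factors for lysosomal genes, were not called at 6 or 8 weeks in either fit. The difference in Tfeb at 8 weeks was -0.59 ± 0.30 with all mice (adjusted p = 0.189) and -0.25 ± 0.13 in 58 mice (adjusted p = 0.146), and that in Tfe3 was -0.31 ± 0.23 and -0.05 ± 0.10. With median-ratio scaling of the 58 libraries Tfeb was called as lower, with a difference of -0.43 at 6 weeks (adjusted p = 0.0109) and of -0.31 at 8 weeks (adjusted p = 0.0372).

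In the ULK complex, Ulk2, 1 of its alternative kinase subunits, was lower in cachectic mice at 8 weeks. Its levels ranged from 11.8 over a median of 32.1 to 38.5 TPM in the 7 cachectic mice, and were 38.9, 40.3, 41.6, 41.5 and 36.9 TPM in the controls. The ranges overlapped in a single cachectic mouse, replicate 7. The difference in Ulk2 was -0.52 ± 0.18 with all mice (adjusted p = 0.0415) and -0.33 ± 0.09 in 58 mice (adjusted p = 0.00321). With all mice the call was lost when cachectic replicate 1, 2 or 3 or any 1 of the 5 controls was left out. It was also lost without the filter on low values, without the 7 libraries with liver transcripts, and with a fit of only the groups compared. Ulk1, the other kinase, had a difference of 0.33 ± 0.21 in 58 mice (adjusted p = 0.218). Rb1cc1 (FIP200), the scaffold of the complex, had 0.22 ± 0.14 and Atg13, its regulatory subunit, 0.17 ± 0.10. Atg101, which binds and stabilises Atg13, had 0.05 ± 0.08, and none of these 3 was called against controls at 8 weeks. Against non-cachectic mice at 8 weeks, Atg101 was higher by 0.22 to 0.41 over 11 limma fits. It was called in 5 of them, but not in the main fit of all mice.

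The 6 genes of the class III PI3-kinase complex had differences from -0.35 to 0.09 with all mice at 8 weeks, and none was called. In 58 mice, 3 of the 6 were higher: Becn1 (Beclin 1), the core scaffold, by 0.22 ± 0.07 (adjusted p = 0.00869), Atg14, the subunit that directs the kinase to autophagosomes, by 0.33 ± 0.10 (adjusted p = 0.00769), and Uvrag, the subunit of its endosomal form, by 0.36 ± 0.12 (adjusted p = 0.0194). The catalytic subunit Pik3c3 had 0.11 ± 0.09, Pik3r4 had -0.14 ± 0.07 and Ambra1, a Beclin 1 regulator, had 0.04 ± 0.09.

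Of the membrane supply genes none was called at 6 or 8 weeks against controls in either fit. These are the phosphoinositide-binding proteins Wipi1 and Wipi2, the lipid transfer proteins Atg2a and Atg2b and the scramblase Atg9a. Their differences at 8 weeks ran from -0.22 to 0.21 in 58 mice. Of the conjugation genes none was called with all mice at 8 weeks, and in 58 mice 2 of 9 were higher, Atg7 by 0.32 ± 0.09 (adjusted p = 0.00651) and Atg12, the ubiquitin-like protein joined to Atg5, by 0.18 ± 0.07 (adjusted p = 0.0312). The other conjugation genes were the E2-like enzymes Atg3 and Atg10, the ATG8-processing proteases Atg4a, Atg4b and Atg4d, Atg5, and Atg16l1, the partner that places the Atg5 conjugate on the membrane, with differences from -0.18 to 0.17. At 6 weeks 5 of 9 were called in 58 mice, from 0.20 to 0.33 for Atg3, Atg4b, Atg7, Atg12 and Atg16l1 on the log2 scale, beside a median of 0.17 over all genes at that time.

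The 7 members called at 6 or 8 weeks with all mice lie, in the GRCm38 assembly, at chr8:121590361-121598760 on the plus strand (Map1lc3b), chr11:69991143-69994951 on the plus strand (Gabarap), chr8:111940703-111953612 on the plus strand (Gabarapl2), chr7:138890836-138909519 on the minus strand (Bnip3), chr14:66985239-67008877 on the minus strand (Bnip3l), chrX:17556564-17572325 on the minus strand (Fundc1) and chr11:61775649-61855073 on the minus strand (Ulk2). Of the 42 genes, 20 overlap another annotated gene and 16 an antisense gene, among them Map1lc3b (Gm20388 and, antisense, Zcchc14), Sqstm1 (antisense Mrnip) and Bnip3 (antisense Gm45507 and Gm18258). The labels name a stranded kit and the study's methods another kit, so whether reads of overlapping genes were told apart is not known. Bnip3l and Atg4a have an annotated pseudogene of the same name.

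RefSeq promoter sequences (GRCm38.p6, 250 bases before to 50 after the start site) were matched by symbol for 34 of the 42 members, with 39 promoters. They were searched on both strands for the FoxO core motif GTAAACA and for the E-box core CACGTG, the centre of the element bound by TFEB, which reads the same on both strands. No promoter of the 34 members held the FoxO motif, against 4.05% of the 27025 genes with a promoter, so these letters are not in these windows. The E-box was in promoters of 5 of 34 members (14.7%), against 8.09% of all genes, namely Atg14, Atg3, Atg5, Atg7 and Bnip3. A longer form, TCACGTGA, was in 1 of the 34 (2.94%), against 1.125% of all genes. That member was Atg3, which was not called at 8 weeks, and none of the promoters shown holds the longer form. A match is a description of the sequence only. The promoters of the 3 ATG8 genes called at 6 and 8 weeks are shown because they rose together, and those of Atg14, Atg7 and Bnip3 because they hold the E-box and were called as higher at 8 weeks in 58 mice. Each runs 5′ to 3′ on the gene's strand, with the E-box in capitals. Some of these RefSeq start sites lie inside the gene as annotated by GENCODE. The Atg7 gene begins at 114643097 and the Atg14 gene, on the minus strand, at 47570649, so both windows lie within the gene. Most of the Gabarap window lies after the gene's beginning at 69991143.
Map1lc3b, chr8:121590188-121590487, plus strand: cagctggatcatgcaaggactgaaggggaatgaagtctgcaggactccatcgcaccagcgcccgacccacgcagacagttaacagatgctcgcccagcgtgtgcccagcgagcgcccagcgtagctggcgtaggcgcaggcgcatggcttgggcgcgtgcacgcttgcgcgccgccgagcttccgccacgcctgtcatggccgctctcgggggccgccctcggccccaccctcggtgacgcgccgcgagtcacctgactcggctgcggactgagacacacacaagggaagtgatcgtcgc
Gabarap, chr11:69991120-69991419, plus strand: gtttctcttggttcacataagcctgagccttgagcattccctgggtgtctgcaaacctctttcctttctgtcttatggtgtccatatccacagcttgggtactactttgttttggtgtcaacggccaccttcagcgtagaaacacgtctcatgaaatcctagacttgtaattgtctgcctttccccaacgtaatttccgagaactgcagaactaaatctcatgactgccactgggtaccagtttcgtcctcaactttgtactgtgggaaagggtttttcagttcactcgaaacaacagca
Gabarapl2, chr8:111940453-111940752, plus strand: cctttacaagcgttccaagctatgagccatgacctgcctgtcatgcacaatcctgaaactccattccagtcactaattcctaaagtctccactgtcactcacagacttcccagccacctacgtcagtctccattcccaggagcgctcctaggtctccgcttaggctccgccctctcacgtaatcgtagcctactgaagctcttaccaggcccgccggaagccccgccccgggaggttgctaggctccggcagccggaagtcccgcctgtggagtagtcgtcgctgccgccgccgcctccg
Atg14, chr14:47568385-47568684, minus strand: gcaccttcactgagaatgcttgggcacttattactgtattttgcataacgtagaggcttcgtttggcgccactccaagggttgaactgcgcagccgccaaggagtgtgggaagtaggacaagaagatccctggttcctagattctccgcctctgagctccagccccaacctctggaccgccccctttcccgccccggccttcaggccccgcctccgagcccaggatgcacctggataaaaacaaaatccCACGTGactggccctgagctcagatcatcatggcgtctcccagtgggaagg
Atg7, chr6:114670846-114671145, plus strand: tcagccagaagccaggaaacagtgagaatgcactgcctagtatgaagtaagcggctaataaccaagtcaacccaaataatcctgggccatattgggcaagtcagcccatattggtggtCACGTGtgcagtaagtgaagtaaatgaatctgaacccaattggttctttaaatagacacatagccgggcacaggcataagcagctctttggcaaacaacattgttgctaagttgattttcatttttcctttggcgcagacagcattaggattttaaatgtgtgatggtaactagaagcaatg
Bnip3, chr7:138909457-138909756, minus strand: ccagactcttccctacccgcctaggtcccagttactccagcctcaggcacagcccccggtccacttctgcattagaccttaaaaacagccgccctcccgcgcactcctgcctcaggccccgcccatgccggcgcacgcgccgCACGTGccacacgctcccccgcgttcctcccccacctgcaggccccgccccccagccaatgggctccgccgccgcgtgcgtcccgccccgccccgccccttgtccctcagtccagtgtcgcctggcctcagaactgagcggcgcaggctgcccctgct

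Map1lc3b encodes LC3B, the ATG8 protein used as a marker of autophagosomes, and had the largest difference of the 42 genes. At 6 weeks its levels were 225, 164, 140.1, 151 and 109 TPM in the cachectic mice. The controls had 94.0, 90.1, 87.7, 89.3 and 89.5 TPM and the non-cachectic mice 93.7, 94.0, 91.5, 81.9 and 86.6 TPM. Every cachectic mouse lay above every mouse of both other groups. The difference from controls was 0.76 ± 0.19 (adjusted p = 0.00789) and that from non-cachectic mice 0.77 ± 0.19 (adjusted p = 0.00769). Leaving out cachectic replicate 1 at 6 weeks, the highest mouse, ended both calls.

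At 8 weeks Map1lc3b ranged from 64.3 TPM, in the library with few genes, over a median of 159 to 259.6 TPM in cachectic mice, against 85.1, 92.4, 86.0, 95.9 and 88.9 TPM in controls. Apart from that library all cachectic mice were above all controls. The difference was 0.82 ± 0.18 with all mice (adjusted p = 0.000639) and 1.03 ± 0.12 in 58 mice (adjusted p = 6.18e-09). Against non-cachectic mice it was 0.84 ± 0.18 (adjusted p = 0.000529). At 4 weeks the 5 cachectic mice already had 109.6, 191, 119, 149.7 and 107 TPM and the controls 79.0 to 87.9 TPM. That earlier difference in Map1lc3b was called only in 58 mice, as 0.65 ± 0.13 (adjusted p = 0.00317).

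**Figure D3:**
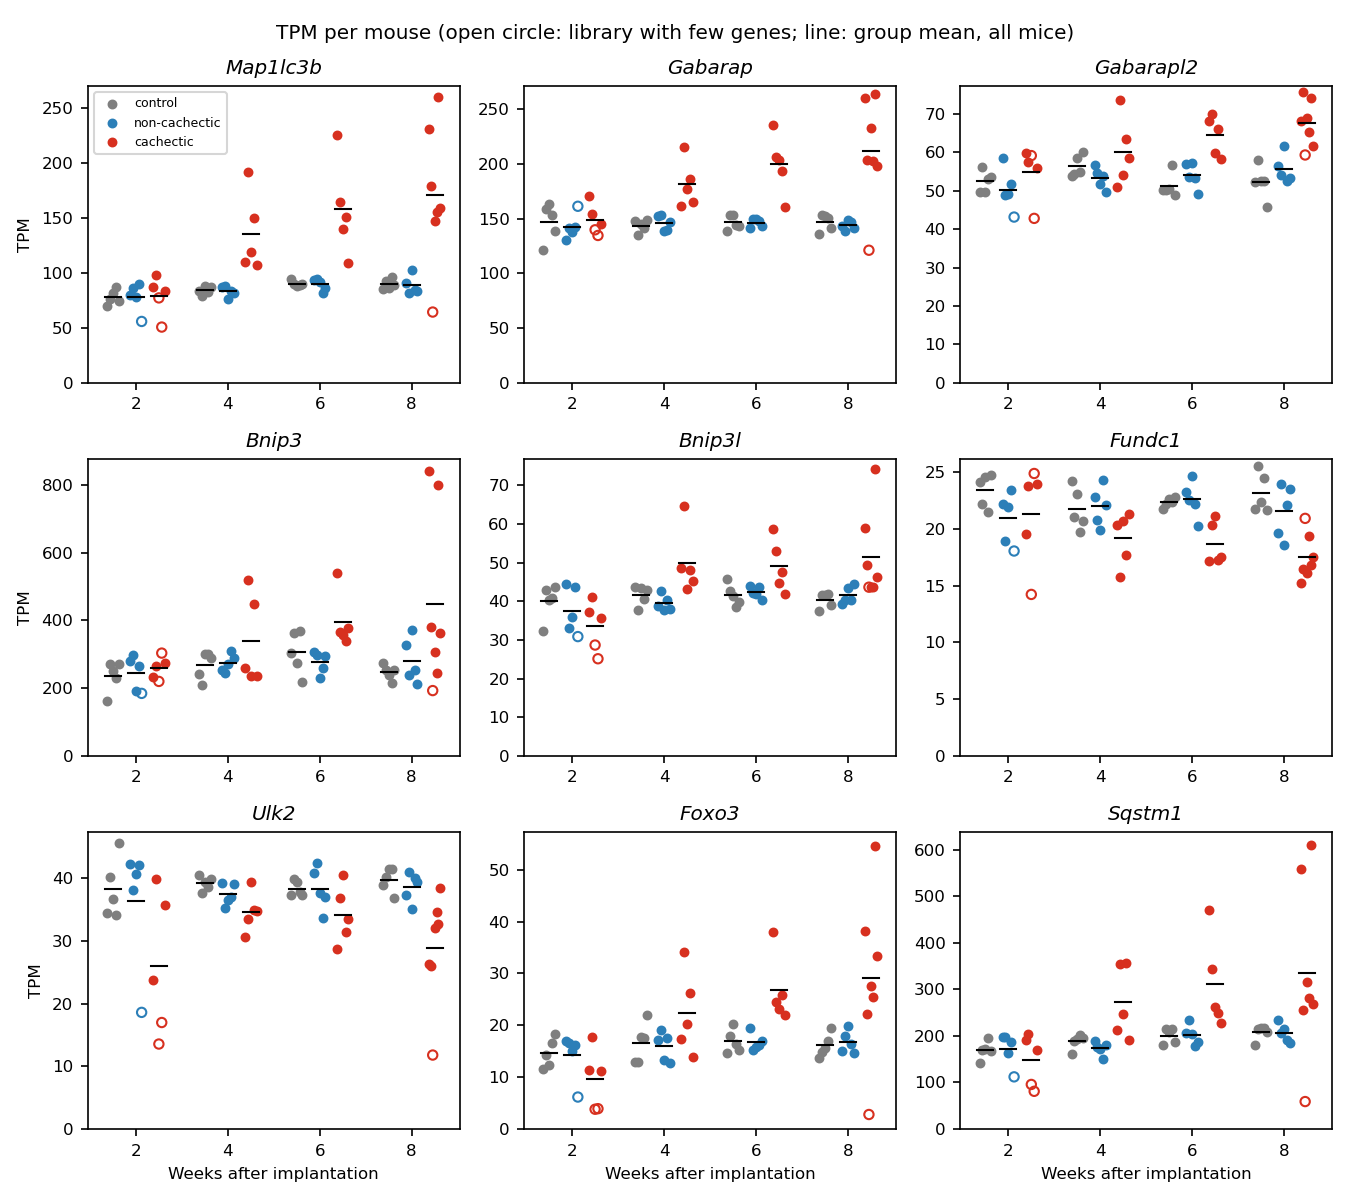
TPM of 9 members in each of the 62 mice by week, for control (grey), non-cachectic (blue) and cachectic (red) mice. Open circles are the 4 libraries with few genes and lines are group means over all mice. At 6 weeks all red points of Map1lc3b, Gabarap and Foxo3 lie above all grey points, and those of Fundc1 lie below.

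Gabarap, another ATG8 protein, had 236, 206, 204, 193 and 161 TPM in cachectic mice at 6 weeks. The controls had 138, 154, 154, 144 and 143 TPM, so the groups did not overlap. The difference in Gabarap was 0.44 ± 0.11 at 6 weeks (adjusted p = 0.00957) and 0.49 ± 0.10 at 8 weeks (adjusted p = 0.0005), where the cachectic mice ranged from 121 over a median of 203 to 264 TPM and the controls from 136 to 154 TPM. Against non-cachectic mice it was 0.44 ± 0.11 at 6 weeks (adjusted p = 0.0101) and 0.52 ± 0.10 at 8 weeks (adjusted p = 0.000295). The call at 6 weeks was lost without cachectic replicate 1, and also with median-ratio scaling of all 62 libraries. At 4 weeks the difference in 58 mice was 0.33 ± 0.08 (adjusted p = 0.0169).

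Gabarapl2 (GATE-16) was the ATG8 gene whose cachectic and control groups did not overlap at 8 weeks even with all mice. It did overlap with non-cachectic mice. At that time it ranged from 59.3 over a median of 68.1 to 75.7 TPM in the 7 cachectic mice, the library with few genes included. The controls had 52.3, 58.0, 52.6, 52.6 and 45.8 TPM and all lay below the cachectic mice. The difference in Gabarapl2 was 0.36 ± 0.08 (adjusted p = 0.000854), and 0.27 ± 0.08 against non-cachectic mice (adjusted p = 0.0151). The call against non-cachectic mice was lost in 5 of 11 alternatives and without non-cachectic replicate 4. At 6 weeks the difference from controls was 0.32 ± 0.09 (adjusted p = 0.015), with 68.3, 70.0, 59.8, 66.1 and 58.3 TPM against 48.8 to 56.8 TPM. That call was lost without cachectic replicate 1 or 2, and with median-ratio scaling, where the shift of all genes is taken out.

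Map1lc3a (LC3A) and Gabarapl1 were not called at 8 weeks with all mice and were called in 58 mice. With median-ratio scaling of all 62 libraries both were called too (adjusted p = 0.0008 and 0.0497), and with array weights Map1lc3a was (adjusted p = 1.6e-05). For Map1lc3a the difference was 0.43 ± 0.21 with all mice (adjusted p = 0.174) and 0.69 ± 0.13 in 58 mice (adjusted p = 3.73e-05), with 6 of 6 cachectic mice above the controls. Gabarapl1 differed in kind, since its difference of 0.69 ± 0.22 (adjusted p = 0.014) rested on replicates 1 and 6, at 297 and 335 TPM, while the other 4 mice had 91.3 to 108 TPM and the controls 74.4 to 96.5 TPM.

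Among the cargo receptors, Sqstm1 had 469.7, 343, 263, 250.1 and 228 TPM in cachectic mice at 6 weeks, all above the 179.9 to 215 TPM of the controls. At 8 weeks it ranged from 59.1 over a median of 282 to 609 TPM, and from 181 to 217 TPM in controls. The difference in Sqstm1 at 8 weeks was 0.41 ± 0.27 with all mice (adjusted p = 0.344) and 0.78 ± 0.16 in 58 mice (adjusted p = 0.000183). Optn (optineurin), a receptor for ubiquitinated mitochondria and bacteria, had 0.20 ± 0.19 and 0.42 ± 0.11 (adjusted p = 0.00223 in 58 mice). Nbr1, a receptor related to p62, had -0.14 ± 0.19 with all mice and 0.09 ± 0.07 in 58 mice, and was not called.

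Of the mitophagy genes, Bnip3 and Bnip3l (NIX), related receptors, were higher at 8 weeks and Fundc1, a receptor of the same membrane, was lower. Bnip3 ranged from 193 over a median of 364 to 842 TPM in cachectic mice and was 273, 253, 240.3, 217 and 254 TPM in controls. Its mean was carried by replicates 1 and 6, at 842 and 799 TPM. The difference in Bnip3 was 0.66 ± 0.22 (adjusted p = 0.0383), and the call was lost without cachectic replicate 1, 2 or 6 and without control replicate 2, 3, 4 or 5. Bnip3l ranged from 43.6 over a median of 46.4 to 74.3 TPM, above the 37.4, 41.7, 41.6, 41.8 and 39.0 TPM of every control. Its difference was 0.32 ± 0.11 (adjusted p = 0.0383), lost without cachectic replicate 1 or 6 or any 1 control.

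Fundc1 ranged from 15.2 over a median of 16.8 to 20.9 TPM in the 7 cachectic mice at 8 weeks. The controls had 21.7, 25.6, 22.4, 24.4 and 21.6 TPM, so every cachectic mouse lay below every control, as it did at 6 weeks. The difference in Fundc1 was -0.39 ± 0.09 with all mice (adjusted p = 0.00248), -0.43 ± 0.07 in 58 mice (adjusted p = 9.13e-06) and -0.29 ± 0.09 against non-cachectic mice (adjusted p = 0.0337). The call against controls was lost with median-ratio scaling or quantile normalization of all 62 libraries, and with a fit of only the groups compared. In the 58 libraries median-ratio scaling gave -0.49 (adjusted p = 8.05e-06). Against non-cachectic mice the call of Fundc1 was lost in 6 of 11 alternatives, and in 7 of 12 fits that left out 1 mouse. Pink1 had -0.37 ± 0.23 with all mice and -0.10 ± 0.09 in 58 mice and was not called.

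Groups without overlap were counted over all genes as well. At 6 weeks 13 members lay in every cachectic mouse above every control and 1, Fundc1, below, where 15.9% of all genes lay above and 2.95% below. At 8 weeks with all mice 2 members, Gabarapl2 and Bnip3l, lay above, against 2.52% of all genes, and Fundc1 below, against 3.82%. Without the library with few genes 7 lay above, against 9.51%, and 1 below, against 4.42%. These 7 were Foxo3, Map1lc3a, Map1lc3b, Gabarap, Gabarapl2, Sqstm1 and Bnip3l. Against non-cachectic mice at 6 weeks 10 members lay above and 1, Tfeb, below, where 1853 and 448 of the 13578 genes did. At 8 weeks with all mice 0 members lay above and 0 below, where 333 and 329 genes did. Without the library with few genes 7 lay above and 0 below, where 1299 and 388 genes did.

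Compared with non-cachectic mice, which also carried a melanoma, cachectic mice had 2 members higher at 6 weeks, Map1lc3b and Gabarap, and none lower, against 4.28% and 1.57% of all genes. At 8 weeks 3 were higher, Map1lc3b, Gabarap and Gabarapl2, and Fundc1 was lower, against 6.75% and 6.19%. The calls of Gabarapl2 and Fundc1 at 8 weeks were lost in 5 and 6 of 11 alternatives. Bnip3, Bnip3l and Ulk2, called against controls at 8 weeks, were not called here with all mice. In 58 mice the counts were 15 higher and 1 lower at 6 weeks, against 22.1% and 5.18%, and 17 higher and 2 lower at 8 weeks, against 23.2% and 10.2%. Both comparisons use the same cachectic mice. In the 58 mice at 8 weeks, Foxo3 was 0.90 ± 0.17 higher than in non-cachectic mice (adjusted p = 6.4e-05) and Sqstm1 0.79 ± 0.16 higher (adjusted p = 0.000161).

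No member was called between non-cachectic mice and controls at 2, 4, 6 or 8 weeks by limma, where 4.43% of all genes were called at 2 weeks and 0% at the later times. At an unadjusted p under 0.05 there were 2 members at 2 weeks, 0 at 4 and 6 weeks and 1 at 8 weeks, and Dunn's test called none. In the 58 mice no member was called either, against 5% of all genes at 2 weeks and 0% at 4, 6 and 8 weeks, with the same counts of members at an unadjusted p under 0.05. Array weights gave 5 members as lower at 2 weeks, against 13% of all genes in either direction. At 8 weeks the 42 differences had a median of -0.02 on the log2 scale.

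At 4 weeks no member was called between cachectic and control mice with all mice (0.0221% of all genes), and 3 had an unadjusted p under 0.05. In 58 mice Map1lc3b and Gabarap were called, against 1.85% of all genes. Against non-cachectic mice at 4 weeks the counts were 0 with all mice, with 4 members at an unadjusted p under 0.05 (0.0295% of all genes were called), and 3 in 58 mice (2.23%), the third being Sqstm1, by 0.61 ± 0.17 (adjusted p = 0.0445). At 2 weeks 11 members were lower in cachectic than control mice, against 29.3% of all genes in either direction. Both cachectic libraries with few genes belong to that comparison, and without the 4 libraries no member and no gene was called (0% of all genes), with 4 members at an unadjusted p under 0.05. Between the 2 tumours at 2 weeks no gene was called in either fit (0%), with 2 members at an unadjusted p under 0.05 in each fit.

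The change from 4 or 6 to 8 weeks was tested as the difference between 2 differences, cachectic minus control at 8 weeks less the same at the earlier time. No member was called in either test with all mice, and no gene was (0% of all genes in both), with 1 and 0 members at an unadjusted p under 0.05. In the 58 mice no member was called either, where 1.38% and 0% of all genes were, with 7 and 1 members at an unadjusted p under 0.05. An increase of any member from 6 to 8 weeks was therefore not shown, whatever the calls at the single time points.

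**Figure D4:**
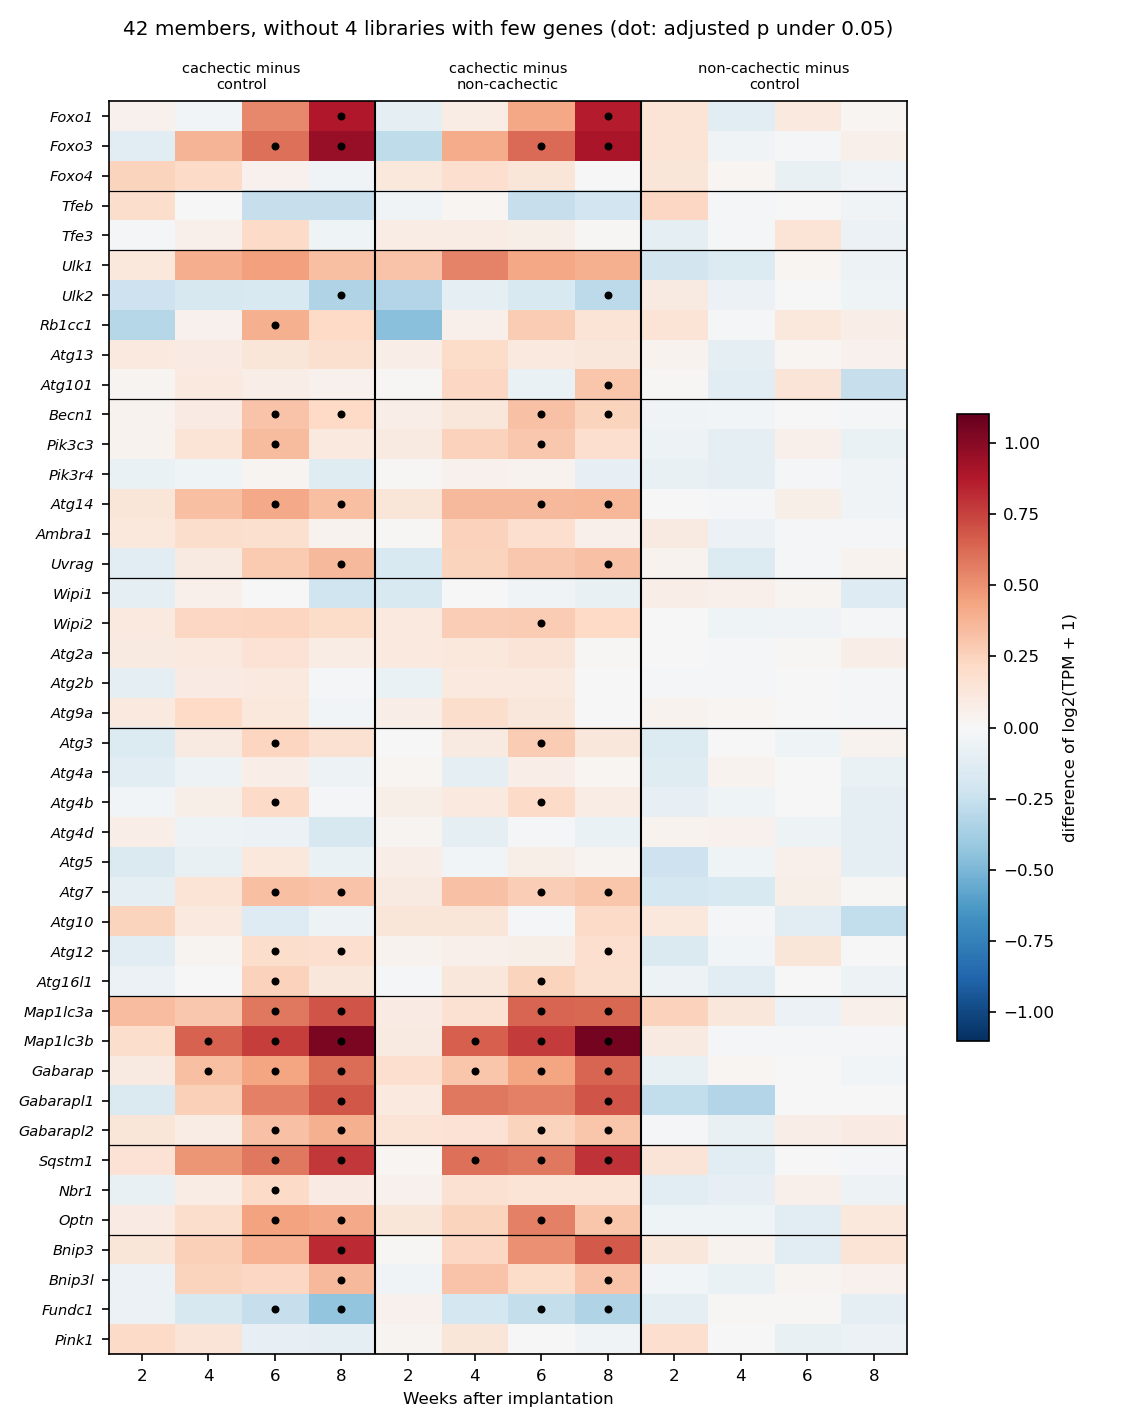
Difference of log2(TPM + 1) of the 42 members in 58 mice, with genes in rows by role and weeks in columns for the 3 comparisons, on a scale from blue (lower) over white to red (higher). Dots mark an adjusted p under 0.05. The dots lie in the columns for 4, 6 and 8 weeks of the cachectic comparisons, and none lies in the columns of non-cachectic minus control.

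Within the cachectic group at 8 weeks the mice varied. Replicate 6 had the highest value of 28 of the 42 members and replicate 3, the library with few genes, the lowest of 36. Replicates 1 and 6 together held the top 2 places for 17 members, against 13.9% of all genes tested. This pair was picked because it had the most members of all pairs, so its count is not a fair match for that share. Among the 17 were Foxo3, Map1lc3a, Map1lc3b, Gabarap, Gabarapl1, Sqstm1, Optn, Bnip3 and Bnip3l. The summed level of the 42 genes was 4016 and 4433 TPM in these 2 mice and 2432 to 2860 TPM in the 4 others with full libraries.

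Other genes of the pathway were read from 3 lists, whose counts stand beside the 6.65% of all genes higher and 8.12% lower at 8 weeks with all mice, and 22.2% and 12.4% in 58 mice. Of 34 further autophagy genes, 4 rose and 3 fell against controls at 8 weeks, with a median difference of -0.14 against -0.09 over all genes. In 58 mice 10 were higher and 3 lower, with a median of 0.15 against 0.06. Trp53inp2 (DOR), which binds ATG8 proteins and fosters autophagosome formation, had a difference of -1.46 ± 0.29 (adjusted p = 0.000215), at 98.0 against 243 TPM. Sesn3, a sestrin, had -0.87 ± 0.24 (adjusted p = 0.00875), whereas its relative Sesn1 was higher by 0.92 ± 0.29 (adjusted p = 0.0246). Trp53inp1 was higher by 0.87 ± 0.26 (adjusted p = 0.016).

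Of 22 genes known as FoxO targets, 4 were higher and 2 lower at 8 weeks, with a median difference of 0.12 against -0.09 over all genes, and in 58 mice 9 were higher and 2 lower, with a median of 0.33 against 0.06. Ddit4 (REDD1), an inhibitor of mTORC1, was higher by 2.50 ± 0.56 (adjusted p = 0.00102). Eif4ebp1, which holds back cap-dependent translation, was higher by 1.76 ± 0.25 (adjusted p = 1.05e-06) and Gadd45a, a stress-induced gene of atrophying muscle, by 1.31 ± 0.31 (adjusted p = 0.0018). Pdk4, the kinase that inhibits pyruvate dehydrogenase, was lower, with a difference of -1.24 ± 0.44 (adjusted p = 0.0465). The ubiquitin ligases Trim63 (MuRF1) and Fbxo32 (atrogin-1), the best known FoxO targets in muscle, were not called with all mice, at 0.94 ± 0.41 and 0.10 ± 0.41. In 58 mice Trim63 was higher by 1.42 ± 0.34 (adjusted p = 0.00103), and Fbxo32 had 0.61 ± 0.29 (adjusted p = 0.0981).

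Of 26 lysosomal and other genes known as TFEB targets, 25 passed the filter on low values, and 6 of these were higher and none lower at 8 weeks, with a median of 0.16 against -0.09. In 58 mice 17 were higher and none lower, with a median of 0.39 against 0.06. The largest were Gpnmb, a glycoprotein of lysosomes that macrophages also make, by 1.14 ± 0.26 (adjusted p = 0.0013), the protease Ctsl by 1.08 ± 0.19 (adjusted p = 5.85e-05), the proton pump subunit Atp6v1h by 1.07 ± 0.15 (adjusted p = 1.3e-06) and the membrane protein Cd63 by 0.82 ± 0.11 (adjusted p = 2.42e-07).

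Markers of other cells moved in the same comparison. Of 8 macrophage markers 5 were higher at 8 weeks in both fits, and 3 at 6 weeks with all mice or 6 in 58 mice. Their summed level at 8 weeks was 162 to 456 TPM in cachectic mice, 103 to 259 TPM in non-cachectic mice and 121 to 187 TPM in controls. Of 6 fibroblast markers 3 were lower and 1 higher at 8 weeks, or 4 and 1 in 58 mice, with summed levels of 721 to 1800.5 TPM in cachectic mice and 601 to 1167 TPM in controls. Of 7 neutrophil markers, 5 passed the filter on low values, and 2 of these were higher and 1 lower at 8 weeks, or 4 and 1 in 58 mice, with summed levels of 9.64 to 75.4 TPM and 5.24 to 16.7 TPM. Of 6 adipocyte markers 1 was higher at 8 weeks in both fits. Of 5 endothelial markers 1 was lower at 8 weeks with all mice, and 1 was higher and 1 lower in 58 mice, with summed levels of 55.6 to 209 TPM in cachectic mice and 177 to 227 TPM in controls. None of 4 mesothelial and 5 erythroid markers was called at 8 weeks in either fit. Liver transcripts varied between single libraries of every group, and none of 10 liver markers was called at 6 or 8 weeks in either fit. The 11 muscle markers had summed levels of 40921 to 95525 TPM in cachectic mice and 63627 to 77416 TPM in controls at 8 weeks, and with all mice 1 of them was called, as lower, while in 58 mice 4 were higher and 1 lower, with a median of 0.27 against 0.06 over all genes. No marker of the 9 lists was at 0 in every mouse of these groups. The part of these cells in the members' differences was not tested.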

How the data were processed

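Diaphragm RNA of 62 mice was sequenced by the authors on an Illumina NovaSeq instrument from TruSeq libraries, whose kit the labels and the methods name differently, and reads were trimmed, filtered for quality and mapped to the mouse genome (mm10 per the submitters' processing notes). The table deposited holds TPM per gene, which sum to 1000000 in each library, so a few abundant transcripts can lower all others. TPM carries no read counts, so depth and counting error are unknown. Groups were taken from the labels, and labels number the mice as biological replicates.

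Values were taken as log2(TPM + 1), and the 13578 genes that reached 1 TPM in 5 or more mice entered a limma fit (3.58.1, R 4.3.3) of the 12 condition means with trended prior variance. In each comparison Benjamini-Hochberg adjustment of p-values ran over all genes fitted. The study used Dunn's test, which was run as an alternative; others were another pseudocount, no filter, median-ratio and quantile scaling, array weights, a replicate block, only the groups compared, a fold limit and leaving out each mouse. The fit was tested on simulated data with independent noise for each gene. The simulation held no shifts of whole libraries, so it does not cover the effect of the 4 libraries with few genes. Leaving out the 4 libraries with under 17000 genes above 0, and 7 with liver transcripts, was chosen after the data were seen. The members and gene lists were chosen with earlier results of these data known.

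For the 7 members called in cachectic mice against controls or non-cachectic mice at 6 or 8 weeks, values are given per mouse or as ranges, some with the median. The 3 highest and 3 lowest members in controls are given as mean ± SD. The 4 called genes with the largest change in each other list are given as differences. Foxo1, Foxo3, Map1lc3a, Gabarapl1, Sqstm1, Optn, Trim63, Fbxo32 and other genes named beyond this were chosen after their values were seen. Gene positions come from GENCODE M21 and plots were made in Python 3.11.15 (matplotlib 3.10.9).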

Additional observations from a re-analysis of the deposited data

Results flagged for a closer look

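The values of the 7 members called with all mice, and the number of genes above 0, were searched for a mouse far from the rest of its group by Dixon's criterion, in 54 groups of values, of which 42 were of members. Chance alone gives about 1 such mouse in 20 groups, and 4 were found. Control replicate 4 at 6 weeks had 56.8 TPM of Gabarapl2, above the next control at 50.5 TPM and below every cachectic mouse of that week. Cachectic replicate 1 at 6 weeks had 539 TPM of Bnip3, above the next mouse at 379 TPM. Non-cachectic replicate 5 at 2 weeks had 15493 genes above 0, below the next library at 17968. Cachectic replicate 3 at 8 weeks had 15263 genes above 0, below the next at 18066.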

How the results depend on the processing

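The direction of each of the 16 single differences of called members held under every alternative that was run, and the counts of called members moved with how the spread was estimated. In what follows the percent in brackets is the share of all genes called in the same fit, and counts are of cachectic against control mice and then against non-cachectic mice. Without the 4 libraries with few genes, the counts were 0 (0%) at 2, 2 (1.85%) at 4, 18 (31.2%) at 6 and 18 (34.6%) at 8 weeks, and 3 (2.23%) at 4, 16 (27.2%) at 6 and 19 (33.3%) at 8 weeks. With median-ratio scaling in addition they were 0 (0%) at 2, 2 (1.97%) at 4, 9 (22.7%) at 6 and 20 (38.2%) at 8 weeks, and 1 (2.33%) at 4, 11 (22.9%) at 6 and 17 (35.5%) at 8 weeks. Both were chosen after seeing the data. Median-ratio scaling of all mice gave 5 (17.6%) at 2, 2 (7.45%) at 6 and 16 (24.1%) at 8 weeks, and 4 (7.66%) at 6 and 11 (21.6%) at 8 weeks. Quantile normalization gave 7 (16%) at 2, 1 (0.317%) at 4 and 12 (25.3%) at 8 weeks, and 1 (0.214%) at 4, 4 (9.24%) at 6 and 8 (22.3%) at 8 weeks. Array weights gave 0 (1.13%) at 2, 6 (7.87%) at 4, 26 (48.4%) at 6 and 17 (36.2%) at 8 weeks, and 12 (8.21%) at 4, 22 (40.6%) at 6 and 21 (40.9%) at 8 weeks, with 5 (13%) for non-cachectic against control mice at 2 weeks and 5 (7.77%) for the change from 4 to 8 weeks.

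Fits of only the groups compared gave 0 (0%) at 2, 18 (29.7%) at 6 and 0 (4.07%) at 8 weeks, and 15 (24.3%) at 6 and 0 (2.68%) at 8 weeks. Dunn's test gave 0 (0%) at 2, 0 (0%) at 6 and 3 (8.26%) at 8 weeks, the 3 being Gabarapl2, Fundc1 and Ulk2, and 0 (0%) at 6 and 0 (4.47%) at 8 weeks. It could not be applied to the changes between weeks. A limit of 1 on the log2 difference left 0 members at 2, 6 and 8 weeks in both comparisons. No filter gave 3 (14.1%) at 2 and 5 (9.28%) at 8 weeks, where Ulk2 and Bnip3 were not called. Without the 7 libraries with liver transcripts, also chosen after seeing the data, there were 0 (0%) at 2 and 4 (13.1%) at 8 weeks. The cause of these moves was not tested.

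The replicate block gave 4 (19.2%) at 2, 3 (4.81%) at 6 and 5 (12.7%) at 8 weeks, where at 8 weeks Bnip3 (adjusted p = 0.153) and Bnip3l (0.190) were not called, and 2 (3.96%) at 6 and 3 (11.1%) at 8 weeks against non-cachectic mice. The numbers do not pair the mice, since 18 of 60 pairs with the same number had a correlation of their deviations above 0.1 (range -0.63 to 0.39) and in 13 the correlation was highest with the same number.

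Leaving out 1 mouse at a time gave 0 to 26 members at 2 weeks (0 without cachectic replicate 3 and 26 without replicate 1), 0 to 3 at 6 weeks and 4 to 11 at 8 weeks against controls, and 0 to 2, 0 to 3 and 2 to 12 against non-cachectic mice. The 0 at 6 weeks came without cachectic replicate 1 in both comparisons. At 8 weeks the 4 came without cachectic replicate 1 and the 11 and 12 without replicate 3, and the 2 without non-cachectic replicate 4. The other counts stayed at 0. TPM gives no read depth, so counting error is not included in any value.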

Other observations

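Genes of several steps of autophagy were read in the list of further autophagy genes. Those named here were chosen after their values were seen, and all are higher ones. Of the 34 genes in that list, 4 were called as higher and 3 as lower against controls at 8 weeks with all mice. The shares of all genes were 6.65% and 8.12%. Leaving out the 4 libraries with few genes gave 10 higher and 3 lower, against 22.2% and 12.4% of all genes. With all mice at 8 weeks, Vmp1, which is needed to form autophagosomes at the endoplasmic reticulum, rose in cachectic mice against controls by 0.46 (adjusted p = 0.0014), as did Vamp8, a SNARE of fusion with the lysosome, by 0.34 (adjusted p = 0.0066). Without the 4 libraries with few genes, Rab7, the small GTPase of late endosomes, was higher by 0.70 (adjusted p = 2.5e-06), the SNARE Snap29 by 0.28 (adjusted p = 0.0096), the receptor for endoplasmic reticulum Ccpg1 by 0.54 (adjusted p = 9.4e-06) and the cargo receptor Tax1bp1 by 0.47 (adjusted p = 0.00012), all by limma. The lysosomal membrane proteins Lamp1 and Lamp2, from the list of TFEB targets, were higher by 0.52 and 0.62 in the same fit. In that list 17 of 25 genes were called as higher and none as lower in this fit.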
